A study of Mus musculus with 12 samples.

Results

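Lung tumours of mice treated with taurine were set against lung tumours of mice treated with proline, 3 libraries against 3 of a series of 12, and every gene with enough counts was compared. Of 36254 genes in the table, 23191 passed the filter on low counts. Both are tumours grown in the lung (orthotopic), and the untreated tumours of the same kind (Model, 3 libraries) serve as a reference for level. Control, the remaining 3 libraries, is normal lung by the series' description, although the tissue label of every sample reads lung tumour. The sample names give C57 mice for all groups. Dose, route, duration of treatment, age and the tumour cells used are not stated by the labels used here. Nor do they say that libraries of a group come from separate animals, and p-values therefore reflect library-to-library spread, which may be technical. Library numbers follow the order of the samples and pair nothing. The names Taurine, Proline and Model stand below for the groups.

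Taurine is a sulphur-containing amino sulphonic acid that cells take up through the transporter Slc6a6 or make from cysteine through Cdo1, Fmo1 and Csad, and it acts as an osmolyte and a conjugation partner of bile acids. Proline is a building block of protein, abundant in collagen, made from glutamate through Aldh18a1 and the Pycr enzymes and broken down in mitochondria by Prodh. In tumours, interferon-gamma from lymphocytes acts through factors such as Irf1 to switch on guanylate-binding proteins, antigen presentation by MHC class I and class II, and the checkpoint ligand PD-L1. Direct comparison of both amino acids asks which genes separate one treatment from the other, without untreated tumour on either side.

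The 6 libraries held 64649670 to 69456490 counts. Levels are CPM (library-size-scaled counts, after TMM scaling), and log2 fold changes are Taurine minus Proline. Correlations of log2 CPM across genes were 0.950 to 0.967 between Taurine libraries, 0.947 to 0.965 between Proline libraries and 0.928 to 0.965 between the groups, so libraries of different groups were about as alike as libraries of 1 group. The first principal component of the 6 libraries held 30.7% of the variance and had Proline 1 and Taurine 3 at its ends, not the groups. Genes marking the tumour (Hmga2, Rhox5 and 6 others) summed to 2688, 3158 and 2596 CPM in Taurine, 2883, 3074 and 2821 CPM in Proline, and 38.4 to 45.0 CPM in Control, so the tumour label held in all 6. Markers of lung epithelium were low: the alveolar type 2 list summed to 109 to 143 CPM in Taurine and to 104 and 108 CPM in Proline 2 and 3, against 862 CPM in Proline 1.

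By edgeR's quasi-likelihood test with Benjamini-Hochberg adjustment, 10 genes (0.0431% of those tested) differed between taurine- and proline-treated tumours at an adjusted p under 0.05. Among them 7 were higher in Taurine (0.0302%): the autophagy genes Stx17 and Trp53inp2, the TGF-beta co-receptor gene Tgfbr3, the actin regulator gene Wasf3, and Dennd1b, Dclk2 and Entpd4b. The other 3 were lower in Taurine (0.0129%): the cytoplasmic actin gene Actg1, the sorting nexin gene Snx20, and Spmip6. At an unadjusted p under 0.05 there were 3334 genes (14.4%), with 1609 higher (6.94%) and 1725 lower in Taurine (7.44%). All 3 Taurine libraries lay above all 3 Proline libraries for 2080 genes (8.97%) and below them for 1807 (7.79%). DESeq2 called 1078 of 19431 genes (5.55%), 459 higher (2.36%) and 619 lower in Taurine (3.19%), all 10 of edgeR's calls among them. The 10 calls had adjusted p-values between 0.0421 and 0.04997, and without any 1 of the libraries Taurine 3, Proline 1 and Proline 2, or of the Model and Control libraries, no gene was called. The number was 1 without Taurine 2, 51 without Taurine 1 and 312 without Proline 3.

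Stx17, the SNARE protein that fuses autophagosomes with lysosomes, had 75.3, 75.7 and 82.4 CPM in Taurine, against 55.6, 55 and 54.6 CPM in Proline. All Taurine libraries lay above all Proline libraries, and the Model libraries, at 69.5, 69.9 and 66.2 CPM, fell between the groups. Its log2 fold change was 0.50 ± 0.06 (SE), with an edgeR adjusted p of 0.0421. Trp53inp2, which recruits LC3 proteins to autophagosomes, had 53.4, 55.5 and 57.9 CPM in Taurine, against 30.9, 37.8 and 40.2 CPM in Proline. The difference was 0.61 ± 0.08 on the log2 scale (adjusted p 0.04997), and Model, at 54.5 to 58.4 CPM, lay with Taurine.

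Tgfbr3, also called betaglycan, presents TGF-beta ligands to their signalling receptors. It had 392, 491 and 457 CPM in Taurine, against 286, 280 and 295 CPM in Proline, where the 3 libraries were close together. The log2 fold change was 0.64 ± 0.08 (adjusted p 0.0421), and Model had 390, 421 and 379 CPM, 1 library within the Taurine range and the others just under it. Wasf3, which drives branched actin assembly through Arp2/3, was scarce, at 4.42, 3.75 and 2.87 CPM in Taurine and 0.940, 1.41 and 0.956 CPM in Proline. Its log2 fold change of 1.74 ± 0.22 (adjusted p 0.0421) was the largest of the 7, and Model, at 1.5 to 1.94 CPM, stood between the groups.

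Dclk2, a doublecortin-like kinase that binds microtubules, had 108, 110 and 110 CPM in Taurine, against 71.6, 78.7 and 70.6 CPM in Proline (log2 fold change 0.57 ± 0.07, adjusted p 0.0421). Dennd1b, an exchange factor for the trafficking GTPase Rab35, had 63.9, 67.3 and 69.5 CPM in Taurine and 45.2, 46.9 and 49.0 CPM in Proline. Both genes were separated by more than the spread within either group. Entpd4b had 57, 71.9 and 66.3 CPM in Taurine and 41.4, 38.4 and 43.9 CPM in Proline, but it is a near copy of Entpd4, and reads may be split between them, so its count is uncertain.

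Actg1, which encodes gamma-actin of the cytoplasm, was the most abundant of the 10. It had 1331, 1389 and 1208 CPM in Taurine, against 1990, 1910 and 1889 CPM in Proline, and 1334, 1436 and 1503 CPM in Model. The Proline libraries lay above all others, with a log2 fold change of -0.56 ± 0.07 (adjusted p 0.0421). Snx20, a sorting nexin of blood cells that binds the selectin ligand PSGL-1, had 4.55, 3.12 and 3.22 CPM in Taurine and 8.96, 11.4 and 8.99 CPM in Proline (log2 fold change -1.43 ± 0.20, adjusted p 0.04997). Spmip6, a sperm microtubule inner protein by its name, had 3, 0 and 3 counts in Taurine, against 23, 27 and 28 counts in Proline and 3 to 5 counts in Model. Few reads stand behind that difference.

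**Figure D1:**
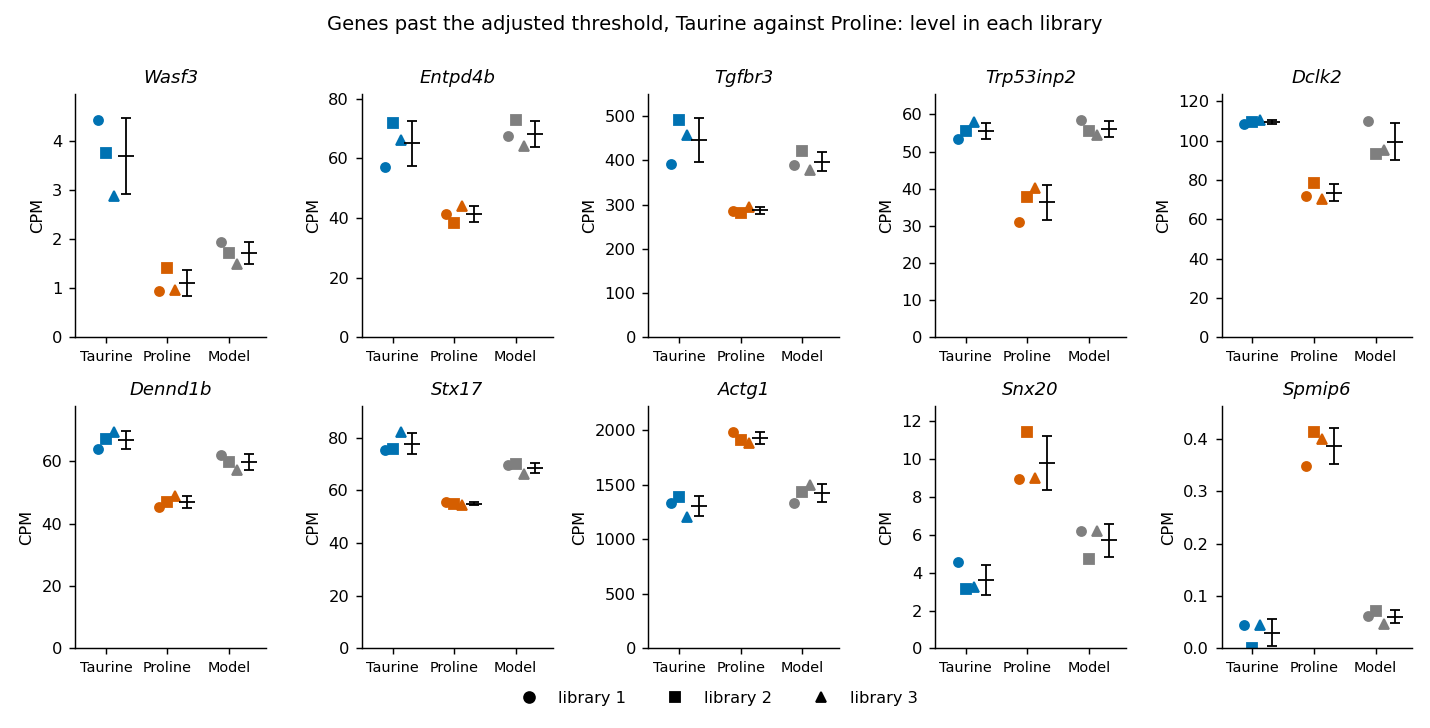
Level in CPM (linear axes from 0) of the 10 genes past an adjusted p of 0.05, with a point for each library of Taurine, Proline and Model and, beside each group, a bar for its mean ± SD (n = 3). Taurine and Proline do not overlap in any panel. The Model points of Stx17, Wasf3, Dennd1b, Snx20 and Spmip6 lie between the groups, and those of Actg1 lie below Proline and within or above the Taurine range.

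The next genes by p did not pass, and they are named for their non-overlapping groups at 1 CPM or more. On the higher side these included Dmxl1, Tfdp2, Pck1 and Pon2, all at an adjusted p of 0.0685. Pck1, the enzyme that commits carbon to gluconeogenesis and glyceroneogenesis, had 13.5, 7.96 and 3.79 CPM in Taurine, against 0.713, 0.322 and 0.784 CPM in Proline, a log2 difference of 3.79 ± 0.61. Model had 6.71, 17.6 and 13.1 CPM, so Proline was the group that stood apart. Adipocytes and kidney also express Pck1: the adipocyte list summed to 46.2, 32 and 128 CPM in Taurine and to 22.3, 52.5 and 46.2 CPM in Proline, and the kidney list to 55.4, 62.9 and 6.45 CPM against 11.3, 2.72 and 8.71 CPM. Their part in the difference was not tested. Pon2, a paraoxonase of internal membranes, had 68.8, 73.9 and 73.2 CPM in Taurine and 55.2, 54.2 and 54.5 CPM in Proline, a difference that was small and steady over libraries. Dmxl1, a regulator of the vacuolar proton pump, had 73.9, 78.7 and 87.2 CPM in Taurine and 44.7, 49.4 and 46.2 CPM in Proline, and Tfdp2, the dimer partner of E2F factors, had log2 fold change 0.73 ± 0.12.

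On the lower side the next genes were Cnn2, Ccrl2, Idnk, Soat1, Cd14, Slc40a1, G0s2, Disp2 and Hsph1, at adjusted p-values of 0.0605 to 0.0685. Cnn2, the actin-binding calponin 2, had 179, 173 and 142 CPM in Taurine, against 260, 254 and 251 CPM in Proline, and missed the threshold at an adjusted p of 0.0605. Ccrl2, an atypical receptor for the chemoattractant chemerin, had 2.19, 2.12 and 1.78 CPM in Taurine and 9.81, 9.55 and 4.18 CPM in Proline. Cd14, the co-receptor for bacterial lipopolysaccharide, had 39, 36.2 and 32.7 CPM in Taurine and 68.7, 66.3 and 51.7 CPM in Proline. G0s2, an inhibitor of triglyceride lipase, had 0.980, 1.22 and 1.71 CPM in Taurine and 5.96, 7.98 and 3.41 CPM in Proline, while Slc40a1, the iron exporter ferroportin, had log2 fold change -1.42 ± 0.23. Soat1, which esterifies cholesterol, and Hsph1, a chaperone of the Hsp110 family, differed by -0.46 ± 0.07 and -0.64 ± 0.11 on the log2 scale.

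Set against untreated tumour, the 24 genes picked by this rule and the threshold differed mostly through the Proline libraries. Of the 12 higher in Taurine, all 12 had their Proline libraries below all Model libraries (9.26% of all genes tested did), and 4 had Taurine above all Model libraries (5.67%). Of the 12 lower in Taurine, 11 had Proline above all Model libraries (8.77%), and 5 had Taurine below them (6.16%). These genes were chosen for their difference between Taurine and Proline, so the counts describe them and are not tested.

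Actin genes were looked at as a list of 36 cytoskeleton genes, drawn up after the values of Actg1 and Cnn2 had been seen. Actg1 passed in the lower direction and Wasf3 in the higher. At an unadjusted p, 11 members were lower in Taurine and 3 higher, against 7.44% and 6.94% of all genes. All Taurine libraries lay below all Proline libraries for 14 members and above them for 2, against 7.79% and 8.97% of all genes. Without Proline 1 or without Taurine 3, 8 were lower, and without Proline 2, 1 was higher. Actg1 and Cnn2, which prompted the list, are counted among the lower members, and Wasf3, already called, among the higher. The list's median log2 fold change was -0.09, against 0.00 over all genes tested, with members on both sides of 0. Actb, the other cytoplasmic actin, had 1628, 1457 and 1296 CPM in Taurine, against 2010, 1945 and 1985 CPM in Proline, with Model at 1576 to 1740 CPM (edgeR adjusted p 0.0832). Wdr1, a helper of cofilin in taking filaments apart, had 192, 193 and 186 CPM in Taurine and 228, 230 and 237 CPM in Proline (adjusted p 0.0755). Tagln2, the actin-bundling transgelin 2, had 274, 280 and 301 CPM against 415, 370 and 349 CPM. Srf, the transcription factor that binds CArG boxes at many actin genes, had 51.7, 46.9 and 48.3 CPM in Taurine and 63.1, 58.9 and 69.5 CPM in Proline (adjusted p 0.113). The thymosin gene Tmsb4x and the adenylyl cyclase-associated gene Cap1 had Taurine below Proline in every library, while Wasf2, a relative of Wasf3, had it above.

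A CArG box lay in the promoter window (250 bases before to 50 after the gene's start, RefSeq, GRCm38.p6, both strands) of 5 of 34 list members with a window (14.7%), against 1.8% of 27025 genes with a window. Actg1 and Cnn2, whose values prompted the list, were among the 5, so the 2 shares are not an independent comparison. Both are shown because they are the 2 members lower in Taurine with the smallest p. The 60 bases are written on the gene's own strand, with the box in capitals, 90 bases (Actg1, chr11:120348551-120348610, minus strand) and 56 bases (Cnn2, chr10:79988519-79988578, plus strand) before the start.
Actg1: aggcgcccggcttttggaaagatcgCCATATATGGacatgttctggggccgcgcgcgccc
Cnn2: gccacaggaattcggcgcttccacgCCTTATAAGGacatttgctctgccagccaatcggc
A match of letters shows no binding, and windows without a match may lie beside elements outside them.

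Autophagy genes, a list of 36 also drawn up after the values of Stx17 were seen, lay mostly on the side of Stx17 and Trp53inp2 by small amounts. Of these, 25 had a log2 fold change above 0 and 11 below (median 0.04). At an unadjusted p, 7 were higher and 1 lower in Taurine, against 6.94% and 7.44% of all genes. The counts include Stx17 and Trp53inp2, the 2 members past the adjusted threshold, so they are not independent of the genes already called. Without Taurine 2 or without Taurine 3, 4 were higher. Rb1cc1, the scaffold of the ULK kinase complex, and Wipi1, which reads the lipid of forming autophagosomes, had log2 fold changes of 0.26 ± 0.09 and 0.29 ± 0.08. Gabarap, among the ubiquitin-like proteins of the autophagosome, was the member lower at an unadjusted p, at -0.24 ± 0.06 (edgeR adjusted p 0.132).

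The widest group of genes that set the treatments apart was that of interferon-inducible genes, which were lower in Taurine than in Proline, but through 2 of the 3 Proline libraries and with no member past the adjusted threshold. Of 26 antiviral genes, 25 were lower in Taurine at an unadjusted p and 17 had all Taurine libraries below all Proline libraries. Over all genes tested, 7.44% were lower at an unadjusted p and 7.79% had all Taurine libraries below all Proline libraries. The antiviral genes had a median log2 fold change of -1.78. Of 17 interferon-gamma GTPases (guanylate-binding proteins and immunity-related GTPases, which attack the vacuoles of intracellular microbes), 15 were lower at an unadjusted p, with a median of -2.65, but 1 alone had groups that did not overlap. Of 18 genes of class I presentation, all 18 were lower at an unadjusted p and 5 did not overlap, with a median of -1.32. DESeq2 called 22, 14 and 17 members of these 3 lists lower, against 3.19% of 19431 genes.

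The libraries show where the difference lay. The antiviral genes summed to 290, 220 and 229 CPM in Taurine, against 668, 906 and 338 CPM in Proline and 311, 248 and 253 CPM in Model. The GTPases summed to 198, 70.6 and 96.0 CPM in Taurine, against 750, 1177 and 114 CPM in Proline and 85.8 to 124 CPM in Model. Proline 1 and Proline 2 were high, and Proline 3 stood near the Taurine and Model libraries. Proline 1 and 2 lay above all Model libraries for 26 of 26 antiviral genes, 17 of 17 GTPases and 18 of 18 class I genes, against 16.3% of all genes tested. Proline 3 was the lowest Proline library for every gene of the 3 lists, against 33.7% of all genes. It lay above all Taurine libraries for 17 of the antiviral genes, 1 GTPase and 5 class I genes, against 24.7% of all genes. Proline 1 and 2 were set apart from Proline 3 after these values were seen, so the counts describe those libraries and are not tested.

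**Figure D2:**
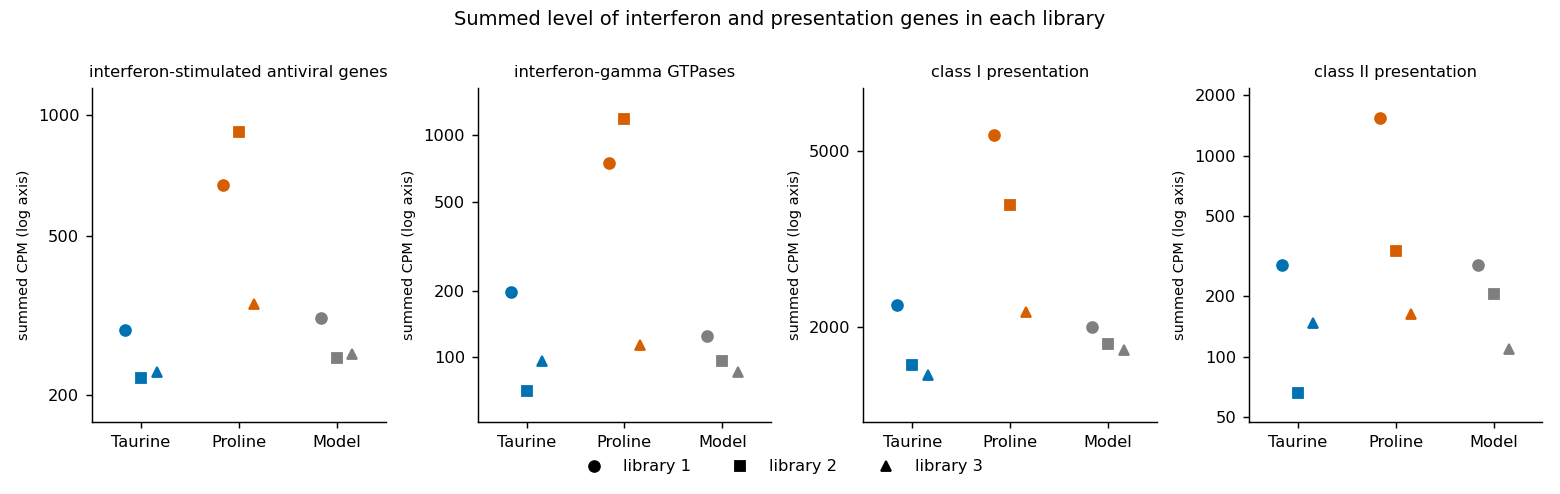
Summed CPM (log axes) of the members of 4 lists in each library of Taurine, Proline and Model, with the symbol giving the library number. In the first 3 panels Proline 1 and 2 stand above every other library while Proline 3 lies near Taurine and Model; in the class II panel Proline 1, at 1536 CPM, stands apart from all others.

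Leaving out Proline 3 turned these differences into calls. Without it, edgeR called 18 antiviral genes, 14 GTPases and 17 class I genes lower in Taurine at an adjusted p under 0.05, where 1.01% of 24476 genes were so called. Without any other Taurine or Proline library none of them was called, and the medians ran from -1.30 to -1.99 for the antiviral genes, -1.95 to -3.09 for the GTPases and -1.0 to -1.56 for class I. With Proline 1 and Taurine 3 both left out, a pair picked with the data in view, the medians were -1.59, -2.40 and -0.86, with 19, 14 and 10 members lower at an unadjusted p. No share of all genes at such a p is given for that fit.

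Among the antiviral genes, Cmpk2, a mitochondrial nucleotide kinase, had the smallest p. It had 2.87, 2.38 and 1.96 CPM in Taurine, against 11.6, 11.8 and 4.56 CPM in Proline (log2 fold change -1.95 ± 0.37, edgeR adjusted p 0.107). Bst2, which tethers budding viruses to the cell, had 52.9, 34.9 and 28.8 CPM in Taurine and 116, 131 and 54.5 CPM in Proline. Both genes had no overlap between groups, with Proline 3 closest to Taurine. Rigi, a sensor of viral RNA, had 31.0, 24.0 and 23.9 CPM in Taurine and 42.6, 44.3 and 36.3 CPM in Proline, a smaller and steadier gap. Stat2, a transcription factor of type I interferon signalling, had 38.6, 30.7 and 33.6 CPM in Taurine and 71.2, 93.6 and 33.9 CPM in Proline, where Proline 3 overlapped. Isg15, a ubiquitin-like modifier, had 6.93, 4.60 and 4.94 CPM against 21.2, 37.3 and 9.0 CPM. Ifit1 and Ifit3, which bind foreign RNA, differed by -2.02 ± 0.51 and -2.01 ± 0.52 on the log2 scale. Ifit2 was the member without an unadjusted p under 0.05: it had 1.81, 27.7 and 27.8 CPM in Taurine and 38.4, 48.6 and 23.6 CPM in Proline, with Taurine 1 far below every other library.

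Of the GTPases, Gbp8 had 0.994, 0.431 and 0.544 CPM in Taurine, against 10.8, 9.27 and 1.30 CPM in Proline, and was the member whose groups did not overlap (log2 fold change -3.43 ± 0.69, edgeR adjusted p 0.113). Gbp2 had 47.6, 12.5 and 15.4 CPM in Taurine and 180, 288 and 18.4 CPM in Proline. Iigp1 had 17.3, 3.85 and 7.15 CPM in Taurine and 66.1, 122 and 6.90 CPM in Proline. For Gbp2 and Iigp1 Taurine 1 lay above Proline 3, so the groups overlapped. Irgm1, which regulates the other immunity-related GTPases, had 21.9, 16.2 and 14.5 CPM against 68.2, 117 and 20.8 CPM. Igtp had 16.8, 5.59 and 8.13 CPM in Taurine and 63.9, 118 and 9.71 CPM in Proline. Tgtp1 has a near-identical copy, Tgtp2, and its counts are uncertain.

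Interferon-inducible promoters carry 2 kinds of element, the interferon-stimulated response element, bound by Irf factors and their complexes, and the GAS element of interferon-gamma. The core GAAA, any 2 bases, GAAA was searched on both strands of the same promoter windows. It lay in 4.0% of 27025 genes with a window, and TTCNNNGAA in 9.6%, counting a match in any window of a gene. Among list members with a window, that core lay in 9 of 10 GTPases, 10 of 19 antiviral genes (52.6%), 4 of 15 class I genes (26.7%) and 0 of 5 class II genes. TTCNNNGAA lay in 6 of 10 GTPases, 4 of 9 genes of interferon-gamma signalling, 4 of 19 antiviral genes, 1 of 15 class I genes (6.7%) and 0 of 5 class II genes. The GAAA-type core lay in 1 of the 9 genes of interferon-gamma signalling. The windows below are from RefSeq (GRCm38.p6), 5′ to 3′ on the gene's strand, with the matches in capitals. They show genes whose level separated Proline 1 and 2 from the Taurine libraries, chosen after the values were seen. First come 3 antiviral genes, at chr19:34640770-34640809, chr19:34583358-34583397 and, on the minus strand, chr4:156200872-156200911.
Ifit1: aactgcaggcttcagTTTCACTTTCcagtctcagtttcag
Ifit3: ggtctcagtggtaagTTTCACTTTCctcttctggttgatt
Isg15: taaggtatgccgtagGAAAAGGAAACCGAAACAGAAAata
Ifit1 and Ifit3 hold the same 10 letters, read on the opposite strand, and in Isg15 overlapping matches form 1 run. Next are 5 GTPases, at chr3:142620589-142620628, chr3:142530268-142530307 and chr11:58199507-58199546 on the plus strand and chr11:48992299-48992338 and chr11:48871426-48871465 on the minus strand.
Gbp2: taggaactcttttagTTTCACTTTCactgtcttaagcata
Gbp7: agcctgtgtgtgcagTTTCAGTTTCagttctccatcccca
Igtp: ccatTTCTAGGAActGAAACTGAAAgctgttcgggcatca
Tgtp1: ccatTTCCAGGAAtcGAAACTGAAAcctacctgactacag
Irgm1: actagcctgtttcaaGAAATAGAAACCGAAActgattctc
In Igtp and Tgtp1 a TTCNNNGAA match, also in capitals, stands next to the GAAA-type match. Last are B2m (chr2:122147533-122147572) with the first core and Irf1 (chr11:53769909-53769947) with the second, both on the plus strand.
B2m: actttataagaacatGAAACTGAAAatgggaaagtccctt
Irf1: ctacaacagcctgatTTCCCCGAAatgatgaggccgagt
These matches are descriptions of letters, and the windows of H2-K1 and Cd274 hold neither core.

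Genes of the interferon-gamma pathway itself differed less. Of 11, 8 were lower in Taurine at an unadjusted p and 1 higher, against 7.44% and 6.94% of all genes. The median log2 fold change was -0.41, and with Proline 1 and Taurine 3 left out, 3 were lower. Irf1, the transcription factor, had 59.7, 41.9 and 36.4 CPM in Taurine, against 105, 159 and 63.5 CPM in Proline. It did not overlap between the groups (edgeR adjusted p 0.119). The receptor chain Ifngr2 had 38.5, 39.1 and 40.9 CPM in Taurine and 50.2, 48.7 and 48.8 CPM in Proline, a small gap that all 3 Proline libraries shared (log2 fold change -0.32 ± 0.07, adjusted p 0.118). Socs3, a feedback inhibitor of cytokine receptors, had 95.6, 102 and 85.9 CPM against 144, 126 and 105 CPM. Jak1, the kinase on the receptor, was the member on the higher side, at 240, 239 and 234 CPM in Taurine and 233, 205 and 205 CPM in Proline. Ifng, the cytokine, was barely detected, at 0.263, 0 and 0 CPM in Taurine and 0.50, 0.936 and 0.0428 CPM in Proline.

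In class I presentation, B2m, the light chain of every class I molecule, had 530, 391 and 352 CPM in Taurine, against 1447, 907 and 542 CPM in Proline and 388 to 440 CPM in Model. H2-K1, a class I heavy chain, had 251, 149 and 161 CPM in Taurine and 744, 453 and 241 CPM in Proline, and H2-D1, another, had 758, 585 and 569 CPM against 1801, 1055 and 717 CPM. In H2-K1 and H2-D1 Taurine 1 overlapped Proline 3, and class I genes are near copies of each other, so their counts are uncertain. Psme1, a subunit of the proteasome activator that helps make class I peptides, had 110, 95.1 and 83.8 CPM in Taurine and 174, 164 and 120 CPM in Proline, without overlap (log2 fold change -0.67 ± 0.14, edgeR adjusted p 0.115).

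Class II presentation was highest in Proline 1, and Proline 2 came next. Its genes summed to 1536, 336 and 164 CPM in Proline and 287, 66.5 and 147 CPM in Taurine. Model had 109 to 287 CPM. Proline 1 and 2 lay above all Model libraries for 7 of 8 genes and above all Taurine libraries for 6. Over all genes tested these shares were 16.3% and 14.9%. The 2 libraries were set apart after the values were seen, so the counts are not tested. Of 8 genes, 7 were lower in Taurine at an unadjusted p (7.44% of all genes were), with a median of -1.92, but none separated the groups fully. Cd74, the invariant chain, had 114, 23.2 and 60.8 CPM in Taurine, against 702, 144 and 64.9 CPM in Proline. Ciita, the master regulator of class II, had 3.27, 0.785 and 1.54 CPM against 13.8, 4.71 and 2.31 CPM. Without Proline 1 the median was -0.58 and no member had an unadjusted p under 0.05; without Taurine 2 or without Taurine 3 none had one either. Alveolar type 2 cells, which carry class II, had their markers high in the same library, Proline 1 (862 CPM in sum). Their part in the difference was not tested.

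PD-L1, encoded by Cd274, had 13.1, 11.9 and 10.2 CPM in Taurine, against 33.8, 65.3 and 11.9 CPM in Proline, so that Proline 3 lay within the Taurine range (log2 fold change -1.66 ± 0.45, edgeR adjusted p 0.156). Of 13 checkpoint genes, 6 were lower in Taurine at an unadjusted p, and 3 did not overlap, against 7.44% and 7.79% of all genes. Lgals9, galectin 9, a ligand of TIM-3, had 48.3, 36.7 and 45.0 CPM in Taurine and 65.7, 61.7 and 54.2 CPM in Proline. Pdcd1, the receptor PD-1, had 0.424, 0.154 and 0.499 CPM against 2.37, 1.06 and 1.64 CPM. Ido1, which degrades tryptophan, had no count in Taurine, 62, 26 and 0 counts in Proline, and none in Model.

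Some chemokine and cytokine genes were lower in Taurine at an unadjusted p, and none passed the adjusted threshold. Of 17 chemokine ligands, 7 were lower at an unadjusted p and 6 did not overlap (median -1.57), against 7.44% and 7.79% of all genes. The count at an unadjusted p was 12 without Taurine 1, 11 without Proline 3 and 3 without both Proline 1 and Taurine 3. Cxcl1 and Cxcl2 attract neutrophils. Cxcl2 had 11.9, 17.9 and 9.25 CPM in Taurine, against 50.8, 57.4 and 24.3 CPM in Proline and 28.1, 6.83 and 25.9 CPM in Model, and Cxcl1 had 13.8, 38.8 and 17.7 CPM against 92.2, 77.4 and 44.7 CPM. Ccl2, which attracts monocytes, had 83.8, 78.8 and 48.5 CPM in Taurine and 172, 184 and 98.2 CPM in Proline. Cxcl10, the interferon-inducible attractant of T cells, had 11.7, 4.05 and 4.38 CPM against 39.5, 68.5 and 6.85 CPM, overlapping at Proline 3.

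Of 14 inflammatory cytokines, 5 were lower at an unadjusted p and 6 did not overlap (median -0.84), against 7.44% and 7.79% of all genes. Without Proline 2, 3 were lower. Il1b, the cytokine that inflammasomes release, had 6.18, 6.92 and 2.72 CPM in Taurine, against 47.8, 36.1 and 13.2 CPM in Proline and 2.34 to 8.19 CPM in Model (log2 fold change -2.62 ± 0.59, edgeR adjusted p 0.119). All 3 Proline libraries lay above all Taurine and Model libraries. Tgfb1 had 65.5, 56.6 and 61.3 CPM against 101, 74.4 and 72.3 CPM, and Csf1, the macrophage growth factor, had 192, 191 and 144 CPM against 234, 256 and 203 CPM. Csf2, the growth factor GM-CSF, had no count in any Taurine library, 0, 39 and 32 counts in Proline, and none in Model.

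**Figure D3:**
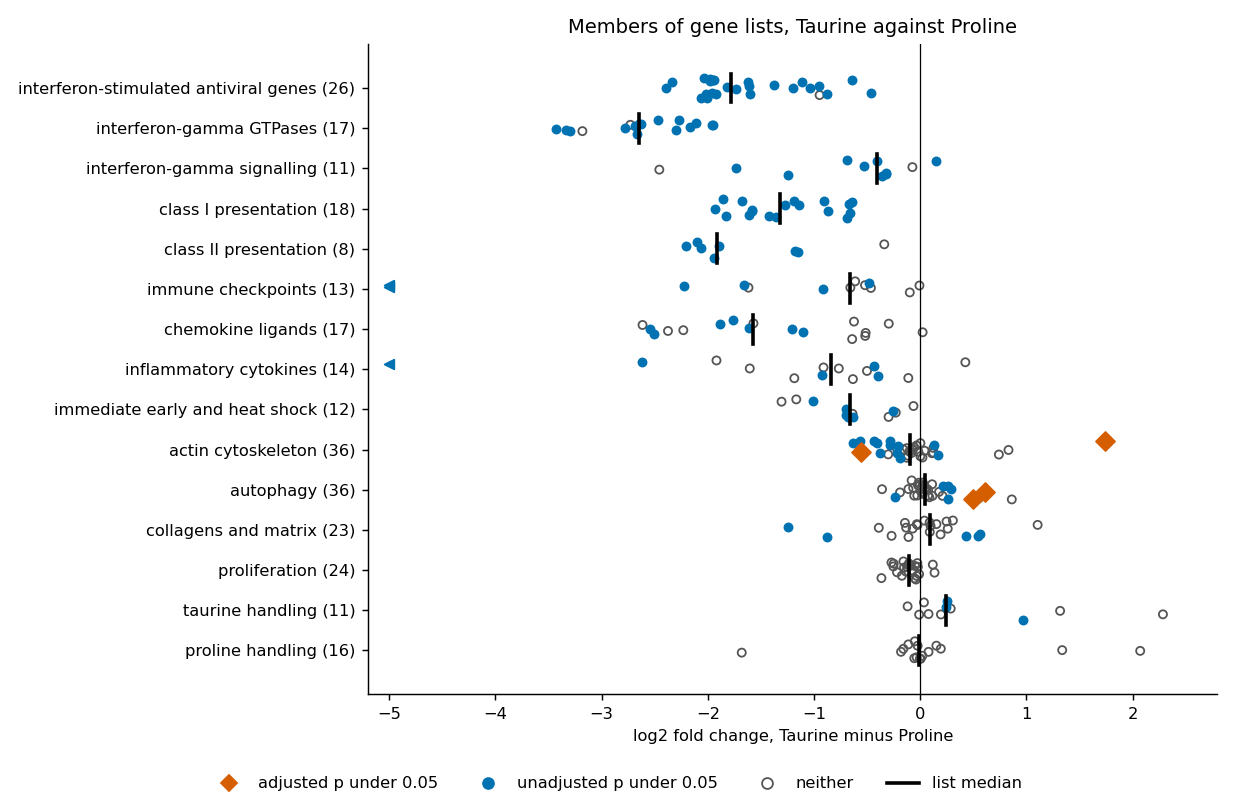
Log2 fold change (Taurine minus Proline) of every tested member of 15 lists, with the number of members in brackets and a black line at each list's median. Orange diamonds passed an adjusted p of 0.05, blue points an unadjusted one, open points neither, and arrowheads lie beyond the axis at -5; antiviral, GTPase and presentation lists lie left of 0 throughout, while proline handling lies on both sides of 0 and proliferation close to it, with 22 of 24 members below 0.

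Among markers of immune cells, the T-cell and neutrophil lists were highest in Proline 1 and 2 of the 6 treated libraries. So were the cytotoxic and NK, thymocyte, dendritic-cell and alveolar macrophage lists, while B-cell and tumour-associated macrophage lists were not. In bulk RNA, fewer cells of a type and less RNA per cell cannot be told apart. Of 16 T-cell genes, 10 were lower in Taurine at an unadjusted p (median -2.42), and 3 did not overlap, against 7.44% and 7.79% of all genes. With Proline 1 and Taurine 3 left out, 1 member had such a p. They summed to 18.1, 6.05 and 7.57 CPM in Taurine, against 87.9, 47.6 and 11.4 CPM in Proline and 57.3, 24.0 and 12.5 CPM in Model. Proline 1 and 2 were the highest of the 6 treated libraries, but Model 1 lay above Proline 2. Of the 16 genes, 8 had Proline 1 and 2 above all Model libraries, against 16.3% of all genes. Proline 3 was the lowest Proline library for all 16, against 33.7% of all genes. Cd5 had no count in any Taurine library, against 172, 61 and 40 counts in Proline, which makes it at least 90.3-fold lower in Taurine against a floor of 3 counts over the group. Model 3 also had none. Cd8a had 0.936, 0.262 and 0.136 CPM in Taurine and 9.87, 4.44 and 0.214 CPM in Proline. The part of the T-cell genes in the interferon difference was not tested.

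Of 16 genes of cytotoxic and NK cells, 4 were lower in Taurine at an unadjusted p, 7 without Taurine 1 and 2 without Proline 1. Over all genes tested, 7.44% were lower at such a p with all libraries in. The median of -0.27 depended on single libraries: it was -1.63 without Taurine 1, -0.03 without Taurine 2, -0.80 without Taurine 3 and -0.65 without Proline 2. Gzmb, the granzyme that triggers death of target cells, had 4.08, 2.40 and 1.69 CPM in Taurine, against 21.4, 22.2 and 4.14 CPM in Proline and 0.832 to 1.86 CPM in Model. Gzma had 1.68, 0.631 and 1.59 CPM against 12, 7.46 and 2.55 CPM. Both did not overlap between the treatments, by a narrow gap for Gzmb (edgeR adjusted p 0.122). Of 11 B- and plasma-cell genes, 6 were lower at an unadjusted p: Ms4a1, the B-cell surface protein CD20, had 0.190, 0.277 and 0.0605 CPM in Taurine and 0.925, 2.15 and 0.599 CPM in Proline, while Jchain and Igkc overlapped between groups. The 11 genes summed to 120.6, 29.1 and 55.1 CPM in Taurine and to 120.0, 220.5 and 81.7 CPM in Proline, so Taurine 1 stood level with Proline 1.

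Neutrophil markers, 11 genes, summed to 62.1, 56.5 and 67.8 CPM in Taurine, against 244, 197 and 55.8 CPM in Proline. Of these 6 were lower at an unadjusted p (median -1.47), against 7.44% of all genes, and 3 were lower without Proline 1. Csf3r, the receptor for G-CSF, had 14.5, 11.1 and 7.63 CPM in Taurine and 33.9, 28.1 and 15.9 CPM in Proline, and S100a9, an alarmin of neutrophils, had 18.5, 16.6 and 14.9 CPM against 70.1, 56 and 14.4 CPM. Proline 3 lay below all Taurine libraries for S100a9. The tumour-associated macrophage list had the largest sum of the immune-cell lists, at 4089, 3558 and 3562 CPM in Taurine and 3031, 3696 and 3939 CPM in Proline. It had 14 members, a median of -0.01 and 2 lower at an unadjusted p. Without Proline 2 none was lower, without Taurine 3, 1 was, and without Proline 3, 2 were higher and 2 lower. One of these was Fcgr1, an interferon-inducible Fc receptor, at -1.13 ± 0.38 on the log2 scale.

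Haemoglobin genes were lower in Taurine in every library. Hbb-bs, a beta-globin, had 19.6, 45.6 and 19.9 CPM in Taurine, against 89.0, 74.8 and 83.7 CPM in Proline and 67.8 to 109 CPM in Model (log2 fold change -1.54 ± 0.35, edgeR adjusted p 0.119). Hba-a1, an alpha-globin, had 20.2, 38.3 and 15.2 CPM against 71.5, 61.4 and 66.0 CPM. Globin genes are near copies of each other and their counts are uncertain. Of 8 erythroid genes, 5 were lower at an unadjusted p, without overlap, against 7.44% and 7.79% of all genes, and 1 was higher. This was Slc4a1, the anion exchanger of red cells that the kidney also carries. It had 15, 26 and 22 counts in Taurine and 0, 3 and 0 counts in Proline.

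Transcripts of other tissues varied widely between libraries of the same group. Skeletal muscle genes summed to 385, 117 and 3475 CPM in Taurine and to 10.1, 1127 and 807 CPM in Proline. Kidney genes summed to 55.4 and 62.9 CPM in Taurine 1 and 2 and to at most 11.3 CPM in Taurine 3 and the Proline libraries, but to 67.2 CPM in Model 3. Club-cell genes summed to 80.1, 13.8 and 4.90 CPM in Taurine and 204, 10.7 and 1.68 CPM in Proline. None of the 10 skeletal muscle genes had an unadjusted p under 0.05. Of 8 kidney and 10 liver genes, 2 each were higher in Taurine at such a p, against 6.94% of all genes. None of these passed by edgeR, and DESeq2 called 2 of each list higher. All 8 kidney genes had a log2 fold change above 0.

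**Figure D4:**
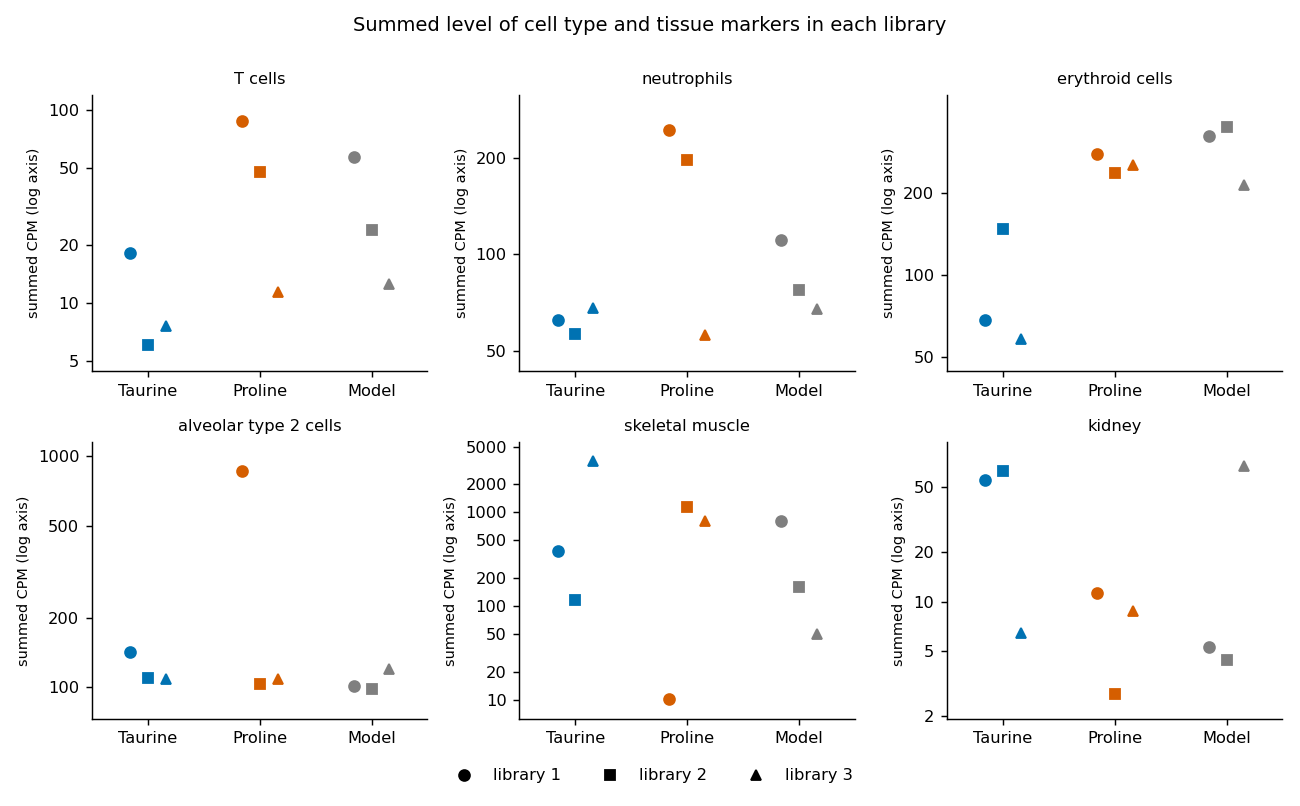
Summed CPM (log axes) of marker lists in each library of Taurine, Proline and Model, with the symbol giving the library number. T-cell and neutrophil genes are high in Proline 1 and 2, erythroid genes are lower in all 3 Taurine libraries, alveolar type 2 genes stand out in Proline 1, muscle genes in Taurine 3 and kidney genes in Taurine 1, Taurine 2 and Model 3.

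Of 11 genes that handle taurine, none passed by edgeR and DESeq2 called 1, Fmo1, higher in Taurine. By edgeR 3 were higher at an unadjusted p and none lower, against 6.94% and 7.44% of all genes. The median log2 fold change of 0.24 ran from 0.06 without Taurine 3 to 0.28 without Proline 1, and was 0.10 without Proline 3, 0.12 without Taurine 2 and 0.14 without Proline 2. Slc6a6, the taurine transporter, had 272, 260 and 287 CPM in Taurine, against 236, 235 and 216 CPM in Proline and 250 to 288 CPM in Model (log2 fold change 0.25 ± 0.08, edgeR adjusted p 0.213). Taurine lay within the Model range and Proline below it. Fmo1, which oxidises hypotaurine to taurine, had 3.19, 2.40 and 4.55 CPM in Taurine and 2.40, 1.63 and 1.17 CPM in Proline, and Csad, the decarboxylase that makes hypotaurine, had 28.5, 27.5 and 32.5 CPM against 27.5, 21.5 and 25.9 CPM. Cdo1, the cysteine dioxygenase that starts the pathway, was low, at 1.74, 1.83 and 3.26 CPM in Taurine and 2.88, 2.15 and 1.85 CPM in Proline, while Ado, the other thiol dioxygenase, had 45.4, 48.4 and 50.8 CPM against 53.3, 52.5 and 51.2 CPM. Slc36a1, a proton-coupled carrier of small amino acids, differed by 0.08 ± 0.10.

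For proline handling, 0 of 16 genes had an unadjusted p under 0.05 by edgeR and DESeq2 called 0, against 14.4% and 5.55% of all genes. The median of the 16 was -0.01. Without Proline 1, 2 were higher at an unadjusted p, and without Taurine 3, 1 was. Aldh18a1, the first enzyme of proline synthesis, had 138, 124 and 117 CPM in Taurine and 115, 140 and 122 CPM in Proline. Pycr1, the mitochondrial reductase of the last step, had 5.06, 5.0 and 6.02 CPM against 4.87, 5.37 and 5.61 CPM, and Pycr3, the cytosolic one, had 24.5, 22.6 and 24.1 CPM against 24.7, 26.6 and 28.2 CPM. Prodh, the first enzyme of breakdown, had 19.1, 16.9 and 13.8 CPM in Taurine and 18.5, 18.4 and 19.4 CPM in Proline. Of the carriers, Slc38a2 had 252, 263 and 294 CPM against 289, 280 and 268 CPM, and Slc6a20a was near 0 in all 6 libraries. Prodh had a log2 difference of -0.18 ± 0.17 (SE).

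Early-response and stress genes were on the lower side in Taurine, with none past the adjusted threshold. Of 12 immediate early and heat shock genes, which also respond to tissue handling, 6 were lower in Taurine at an unadjusted p (median -0.66). Of the 12, 5 did not overlap, and over all genes the shares were 7.44% and 7.79%. Without Taurine 1 or without Proline 1, 3 were lower. Junb had 71.5, 91.0 and 74.5 CPM in Taurine, against 141, 126 and 118 CPM in Proline and 57.3 to 84.3 CPM in Model (log2 fold change -0.70 ± 0.15, edgeR adjusted p 0.115). Fos and Zfp36, also induced within minutes of a stimulus, did not overlap between the treatments either, while Jun differed by -0.23 ± 0.14. Of 16 genes of the amino acid stress response, 6 were lower at an unadjusted p (median -0.22), 3 without Taurine 3 or without Proline 2. One was Atf4, its central transcription factor, at 251, 240 and 245 CPM in Taurine and 287, 272 and 271 CPM in Proline. Chac1, an Atf4 target that degrades glutathione, had 0.775, 0.539 and 1.04 CPM against 2.27, 2.49 and 1.65 CPM.

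Of 16 apoptosis and necroptosis genes, 9 were lower in Taurine at an unadjusted p and 1 higher (median -0.38), against 7.44% and 6.94% of all genes. Without Proline 1 or without Proline 2, 5 were lower. Mlkl, which executes necroptosis, had 52.9, 54.9 and 51.2 CPM in Taurine, against 69.4, 86.4 and 65.4 CPM in Proline, and Ripk3, the kinase that activates it, differed by -1.32 ± 0.31 (edgeR adjusted p 0.123). The member on the higher side, Bcl2, had 37.5, 40.2 and 45.4 CPM against 31.5, 31.1 and 34.4 CPM. Of 17 genes of glycolysis and hypoxia, 5 were lower (median -0.13; 3 without Taurine 1 or without Proline 1, 8 without Taurine 2), led by the glucose transporter Slc2a1 at -0.88 ± 0.25 and the hexokinase Hk2 at -0.61 ± 0.18. Among the tumour marker genes, Myc had Taurine below Proline in every library, at -0.57 ± 0.15, and Osr2, a transcription factor of mesenchyme, had it above, at 0.68 ± 0.15 (adjusted p 0.141 and 0.122).

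Differences in proliferation and respiration genes were small. None of 24 proliferation genes had an unadjusted p under 0.05 by edgeR, against 14.4% of all genes, and 2 were lower at such a p by DESeq2. Of the 24, 22 had a log2 fold change below 0 (median -0.10). Without Taurine 1, 5 were lower at an unadjusted p and the median was -0.21, and it was -0.04 without Taurine 3 or without Proline 3. Mki67, a marker of cycling cells, was among the 2 members above 0. It had 296, 248 and 275 CPM in Taurine and 257, 244 and 252 CPM in Proline. Of 26 genes of oxidative phosphorylation, 1 was higher and 2 were lower at an unadjusted p (median -0.02), against 6.94% and 7.44% of all genes. Of 23 collagen and matrix genes, 3 were higher and 2 lower (median 0.09), with 7 higher without Proline 1 and 5 without Taurine 1. Without Taurine 3 the direction turned, with 2 higher and 7 lower and a median of -0.23; the median was 0.23 without Taurine 1, 0.18 without Taurine 2 and 0.03 without Proline 2. Col3a1, a fibrillar collagen rich in proline, had 6458, 6985 and 7286 CPM in Taurine, against 4147, 4157 and 5753 CPM in Proline and 5628 to 7424 CPM in Model (log2 fold change 0.56 ± 0.22, edgeR adjusted p 0.285). Col6a1 differed by 0.43 ± 0.12 and Thbs1, thrombospondin 1, by -0.88 ± 0.29.

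Gene length moved with the comparison. Lengths implied by the authors' FPKM were used for 14813 genes at 1 CPM or more. Genes with all Taurine libraries above all Proline libraries had a median length of 7985 bases, those below 4529 bases and those that overlapped 5204 bases. The genes were put in 5 classes of like size by length. In the class of longest genes 21.6% lay above and 4.5% below, and in the class of shortest genes 5.3% above and 11.2% below. The median log2 fold change was 0.09 among the longest genes and -0.05 among the shortest. Across genes, the Spearman correlation of a library's deviation with length was 0.001, 0.109 and 0.288 in Taurine 1, 2 and 3, and -0.124, -0.065 and -0.063 in Proline, with Model from -0.142 to 0.038. The 7 genes called higher in Taurine ran from 6884 bases (Trp53inp2) to 25411 bases (Dennd1b). All lay in the 2 classes of longest genes, which began at 6424 bases. Dclk2 had 13818 bases and Entpd4b 10569. Of the genes called lower, Spmip6 (1898 bases) and Actg1 (3478 bases) were short, and Snx20 had 8457 bases. A fit with an offset for length and GC content, added after the data were seen, called Stx17 alone among 19159 genes. The other 9 kept their direction at adjusted p-values of 0.0776 to 0.131. Log2 fold changes of Tgfbr3 (0.63), Wasf3 (1.77), Trp53inp2 (0.64), Snx20 (-1.43) and Entpd4b (0.63) were close to those without the offset, and Dennd1b was at 0.34, against 0.51 without it. The same fit left the medians of the antiviral genes, GTPases and class I genes at -1.72, -2.60 and -1.24.

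**Figure D5:**
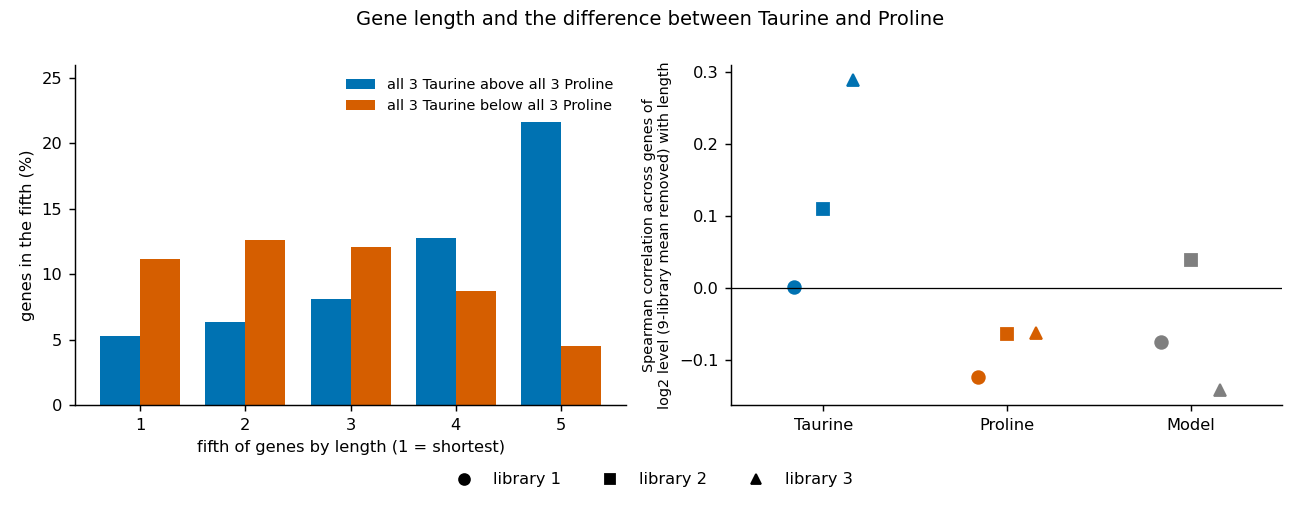
Left, percent of genes in each of 5 length classes with all 3 Taurine libraries above (blue) or below (orange) all 3 Proline libraries. Right, Spearman correlation across genes of each library's log2 level, after removing the mean of the 9 tumour libraries, with gene length; blue exceeds orange for the longest genes (21.6% against 4.5%), and Taurine 3 has the highest correlation, 0.288.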

How the data were processed

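Per the labels' protocols, total RNA was purified with RNeasy (Qiagen) and sequenced after a SMARTer mRNA library preparation. For each library the authors deposited unnormalised counts, all whole numbers, per the file headers. Beside them stand the authors' FPKM, which divide such counts by length and library size. The submitters' processing notes name mm10. Aligner, counter and strand setting: not given in the sources used here, so overlapping and antisense genes cannot be told apart. The table's gene positions do not match GRCm38 and none are printed.

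edgeR 4.0.16 (limma 3.58.1, R 4.3.3) was run on the counts of all 12 libraries in 1 fit, with TMM scaling, filterByExpr and a two-sided quasi-likelihood test of Taurine minus Proline. Adjustment was Benjamini-Hochberg over 23191 genes, at a threshold of 0.05. All adjusted p-values come from this fit unless another tool is named. The common biological coefficient of variation was 0.437. CPM were computed here after TMM scaling, and each SE is the log2 fold change over the root of its F statistic. DESeq2 1.42.0, limma on log2(FPKM + 1), 3 other scalings, other filters and leaving out libraries were alternatives. The fits were tested on simulated data. Floors cover counting error only.

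The 12 genes a direction named first are those past the threshold and then those with the smallest p, with at least 1 CPM and groups that do not overlap; predicted genes were left out, and 1 of the 12 on the higher side is not reported here. In each list the 3 most abundant members and the smallest p a direction were eligible, and others were chosen after their values were seen. Members and lists were chosen with earlier results of these data known. Of 600 list symbols, 599 were matched. List counts are descriptions without a set test, read against the share of all genes. Those shares belong to fits of all libraries. For fits with libraries left out, a share is given only without Proline 3 at an adjusted p. Other counts from such fits have no share of their own to be read against.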

Additional observations from a re-analysis of the deposited data

How the results depend on the processing

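The 10 calls were marginal. The number of genes called was 1078 with DESeq2, 47 with voom and library weights, 18 with limma on log2(FPKM + 0.1), 1 with limma on log2(FPKM + 1) and no filter, 0 with median-ratio scaling, 0 with no filter on low counts, 0 in a fit of the 6 libraries and 0 in a fit of the 9 tumour libraries. Leaving out single libraries gave 0 to 312 calls: 51 without Taurine 1, 1 without Taurine 2 and 312 without Proline 3, all 10 being kept in the first and the last. Of the alternatives added with the data in view, 4 genes, none of the 10, were called without Proline 1 and Taurine 3, and 1 gene with the length and GC offset. Limma on log2(FPKM + 1), upper quartile scaling, no scaling and a filter of 1 CPM in 3 libraries gave 14, 11, 13 and 12. Of the 10, 3 were among the 14 by limma and 4 among the 18 with pseudocount 0.1, against 10, 9 and 10 among the 11, 13 and 12. The cause was not tested. Stx17 was called in 10 of 26 alternatives, Actg1 and Tgfbr3 in 9, Spmip6 in 8, and the others in 6 or 7; all 10 kept their direction.

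Among the named genes 26 values changed sign, all of 4 genes with adjusted p-values of 0.679 or more. Aldh18a1 (0.0049 as reported) was at -0.0031 with DESeq2, -0.0398 with voom, -0.0037 with limma on log2(FPKM + 1) with or without a filter, -0.0038 with pseudocount 0.1, -0.0031 with median-ratio scaling, -0.0033 with no count filter, -0.0014 with the 1 CPM filter, -0.0047 in 6 libraries, -0.0021 in 9, and -0.0036 without Proline 1 and Taurine 3. Pycr1 was at -0.0295 with voom and -0.126 without those libraries, and Cdo1 at 0.0073 with upper quartile scaling and 0.0665 with the length offset. With single libraries left out, the values ran from -0.0662 to 0.0914 for Aldh18a1, -0.0708 to 0.068 for Pycr1, -0.361 to 0.187 for Cdo1 and -3.96 to 0.806 for Slc6a20a.

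No paired analysis was possible because the labels give no replicate number shared between groups. With 3 libraries a group, genes of few counts such as Spmip6 are limited by depth.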

Other observations

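Ifit2 in Taurine 1 stood at 1.81 CPM, while Ifit1 and Ifit3 in that library had 3.10 and 5.22 CPM, within or near the range of the other Taurine libraries. Ifit2 had 23.6 to 48.6 CPM in the other 5 libraries and 28.2 to 31.4 CPM in Model. The value is a single library's and no test was made.

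Cd163, a scavenger receptor of macrophages, had 35.6, 28.1 and 93.2 CPM in Taurine, against 4.29, 24.8 and 33.0 CPM in Proline and 41.2 to 75.3 CPM in Model. The groups overlapped, and Proline 1 and Taurine 3 stood apart (log2 fold change 1.34 ± 0.63, edgeR adjusted p 0.363). Mmp14, a membrane-bound matrix protease, had log2 fold change 0.33 ± 0.09 without overlap between groups, Cyp2e1, an enzyme typical of liver, had 2.0 ± 0.56, and Sesn1, a p53 target of the sestrin family, had 0.66 ± 0.16; none passed the threshold.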
